A study of Mus musculus with 6 samples.

Results

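The transcripts described here are those of 10 chemokine ligand genes, the CC ligands Ccl2, Ccl3, Ccl4, Ccl5, Ccl6, Ccl7, Ccl8 and Ccl9 and the CXC ligands Cxcl2 and Cxcl10, picked by gene name from the 23284 genes listed in each library. All 10 names were found. RNA was sequenced from EGFP-positive cells that a cell sorter collected from the skull roof (calvaria) of CX3CR1-EGFP mice, whose green reporter marks cells using the gene of the fractalkine receptor. All mice received lipopolysaccharide (LPS), an inflammatory component of bacterial outer membranes, by injection at the calvarial periosteum. Of the libraries, 3 came from mice also given 10 mg/kg CTLA4-Ig (abatacept, a fusion of the CTLA-4 outer domain with an antibody Fc part that binds CD80 and CD86). The other 3 came from mice given 10 mg/kg whole human IgG as control, and the cells were taken 5 days later. Age, sex and strain background of the mice are not given in the labels, and there is no group without LPS, so what LPS itself does to these genes is not measured here. The titles call the libraries biological replicates, but no label ties one to an animal, so the p-values measure the spread between these libraries.

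Chemokines are small secreted proteins that guide leukocytes by binding G protein-coupled receptors. CC ligands have a pair of adjacent cysteines near the start of the mature protein and draw mainly monocytes, macrophages, eosinophils and T cells, and CXC ligands have a residue between these cysteines and draw neutrophils or T cells depending on the ligand. In bone, monocytes and osteoclast precursors carry the receptors Ccr1 and Ccr2, and Ccl9 and Ccl3 are known products of osteoclast lineage cells. Many ligand genes are switched on within hours through NF-kB after LPS, and Cxcl10 is also a classical target of interferon signalling.

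The libraries had similar depth by the factor that scaled them. The deposited values are FPKM, fragment counts divided by transcript length and by a factor for library size. Ratios of low values between libraries gave this factor, taken here as relative depth. The lowest, in CTLA4-Ig library 2, was 0.819 of the highest, in CTLA4-Ig library 3. The total fragments of each library were not available and may differ from it. The sorted population was mixed: Ly6c2, a monocyte marker, stood at 2160 to 2340 FPKM, Csf1r at 140.0 to 193 and Cx3cr1, the gene behind the reporter, at 12.3 to 32.5, while summed neutrophil markers were far higher. The 13 matched neutrophil markers summed to 174000 to 241000 FPKM in the CTLA4-Ig libraries against 135000 to 154000 in the controls. Most of that sum was S100a8 (54800 to 95500) and S100a9 (48500 to 90800). A positive log2 difference was seen in 11 of the 13 (median 0.535), against 47.7% of all genes tested. In limma 7 of the 13 had an unadjusted p under 0.05, against 6.07% of all genes, and 0 were called. Markers of T cells (8.69 to 17.6 FPKM summed over 7 genes), NK cells (20.4 to 41.7 over 7), B cells (13.2 to 17.7 over 5), dendritic cells (46.6 to 68.9 over 6), mast cells, basophils and eosinophils (629 to 1250 over 6), osteoblasts and fibroblasts (11 to 29.4 over 7), endothelium (15.4 to 22.4 over 5) and red cells (7.18 to 115 over 4) were present at lower levels, with ranges over all 6 libraries. The 6 osteoclast markers summed to 18.1 to 30.3 FPKM, nearly all of it from Acp5 (15.7 to 27.0) and Ctsk (1.41 to 4.98), while Oscar was listed at 0 in every library, Calcr reached 0.0322 FPKM, Dcstamp 0.119 and Ocstamp 0.231. In such bulk RNA, fewer cells of a type and less RNA per cell cannot be told apart, and which cells held each chemokine transcript was not measured.

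All 8 CC ligand genes lie in 2 groups on mouse chromosome 11 (GRCm38), and the CXC genes lie apart on chromosome 5. Ccl2 (82035577 to 82037452), Ccl7 (82045712 to 82047525) and Ccl8 (82115185 to 82116799) form the group of monocyte chemoattractants on the plus strand. Ccl5 (83525778 to 83530518), Ccl9 (83572917 to 83578636), Ccl6 (83587886 to 83593087) and Ccl3 (83647843 to 83649378) follow on the minus strand and Ccl4 (83648624 to 83664683) on the plus strand. Cxcl2 spans 90903899 to 90905938 on the plus strand and Cxcl10 spans 92346638 to 92348889 on the minus strand of chromosome 5. Each gene has 3 exons in its first listed GENCODE transcript, except Ccl6, Ccl9, Cxcl2 and Cxcl10 with 4. Ccl3 and Ccl4 overlap on opposite strands in RefSeq through a predicted Ccl4 transcript, Ccl6 overlaps E230016K23Rik (2.36 FPKM) and Cxcl10 overlaps Art3 (0.154 FPKM), and the annotations also place Gm17268 over Ccl2 and Gm32650 over Ccl5. The sources used here do not say whether the authors' counting used the strand, so these values are uncertain where reads of overlapping genes could be split.

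The 250 bases before the start of 4 of the genes are shown, from RefSeq promoter windows of assembly GRCm38.p6, because the transcripts of these genes carry the contrasts below: Cxcl10 had the same lowest library as all tested interferon-stimulated genes, Ccl8 was the gene whose groups did not overlap, Ccl9 is abundant and Cxcl2 is a neutrophil attractant near 0. Of the 10 ligands 6 were matched in that table, these 4 with Ccl6 and Ccl3, and Ccl2, Ccl4, Ccl5 and Ccl7 were not. Each sequence reads 5′ to 3′ on the strand of the gene, and capitals mark matches on either strand to GGGNNTTNC, a short form of the NF-kB element, or to GAAANNGAA, a short form of the interferon response element. The motifs were chosen after the sequences were seen. They do not cover every variant of either element: gggaaattcc in the Cxcl10 window does not match GGGNNTTNC and stays in lower case. A stretch in lower case is thus not shown to lack such an element.
Cxcl10, chr5:92348890-92349139, minus strand: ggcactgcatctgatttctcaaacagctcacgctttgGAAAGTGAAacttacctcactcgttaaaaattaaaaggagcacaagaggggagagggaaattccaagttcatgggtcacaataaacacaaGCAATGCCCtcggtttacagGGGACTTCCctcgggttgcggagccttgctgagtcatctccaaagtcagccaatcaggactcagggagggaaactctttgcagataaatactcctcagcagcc
Cxcl2, chr5:90903649-90903898, plus strand: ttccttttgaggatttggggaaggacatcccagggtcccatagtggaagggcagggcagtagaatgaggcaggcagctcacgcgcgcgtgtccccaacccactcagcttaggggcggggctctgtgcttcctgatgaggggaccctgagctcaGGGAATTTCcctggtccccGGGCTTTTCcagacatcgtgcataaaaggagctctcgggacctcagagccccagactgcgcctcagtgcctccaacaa
Ccl9, chr11:83578637-83578886, minus strand: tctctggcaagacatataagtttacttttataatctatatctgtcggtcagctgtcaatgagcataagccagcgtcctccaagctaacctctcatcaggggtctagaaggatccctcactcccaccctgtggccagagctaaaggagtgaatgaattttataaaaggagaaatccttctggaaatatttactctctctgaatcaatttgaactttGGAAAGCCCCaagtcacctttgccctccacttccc
Ccl8, chr11:82114935-82115184, plus strand: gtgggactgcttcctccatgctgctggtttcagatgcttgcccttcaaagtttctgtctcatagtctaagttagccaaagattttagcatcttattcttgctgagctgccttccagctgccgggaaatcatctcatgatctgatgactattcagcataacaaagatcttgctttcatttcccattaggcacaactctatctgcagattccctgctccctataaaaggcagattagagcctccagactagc

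The Cxcl10 window held GAAAGTGAA, the interferon form, 213 bases before the start, and the NF-kB form as GGGACTTCC 103 bases and, on the other strand, as GCAATGCCC 123 bases before it. Cxcl2 held the NF-kB form as GGGAATTTC at 97 and GGGCTTTTC at 78 bases before its start. Ccl9 held it on the other strand as 2 overlapping matches, GGAAAGCCC at 35 and GAAAGCCCC at 34 bases. The Ccl3 window held the interferon form on the other strand as TTCCATTTC at 39 bases, and the windows of Ccl8 and Ccl6 held no match to these letters. Of 32851 RefSeq promoter windows of 300 bases, 15.2% held the NF-kB form and 8.56% the interferon form on either strand. A match describes the letters and does not show that a factor binds there.

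Ccl6 and Ccl9, a pair of neighbouring genes whose products bind Ccr1, made up most of the chemokine transcript pool. Together they held 81.4 to 87.7% of the summed FPKM of the 10 ligands in each library. The 10 ligands in turn held 94.3 to 96.8% of the FPKM of all 41 chemokine ligand genes examined. Per transcript length, Ccl6 averaged 244 FPKM over the 6 libraries, Ccl9 154, Ccl5 35.5, Ccl3 22.6, Ccl4 5.77, Ccl2 3.78, Cxcl10 3.71, Ccl8 2.08, Cxcl2 0.666 and Ccl7 0.524. Among all genes of a library, Ccl6 ranked between 316 and 408 from the top and Ccl7 no higher than 10975.

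The order held library by library at the top and not at the bottom. Ccl6 stood above Ccl9, Ccl9 above Ccl5 and Ccl3 above Ccl4 in 6 of 6 libraries, and Ccl5 stood above Ccl3 in 5 of 6. Lower down, Ccl4 was above Ccl2, Ccl2 above Cxcl10 and Cxcl10 above Ccl8 in 4 of 6 libraries each, so these neighbours did not keep their order. Ccl8 was above Cxcl2 in 5 of 6, and Cxcl2 was above Ccl7 in 3 of 6.

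**Figure D1:**
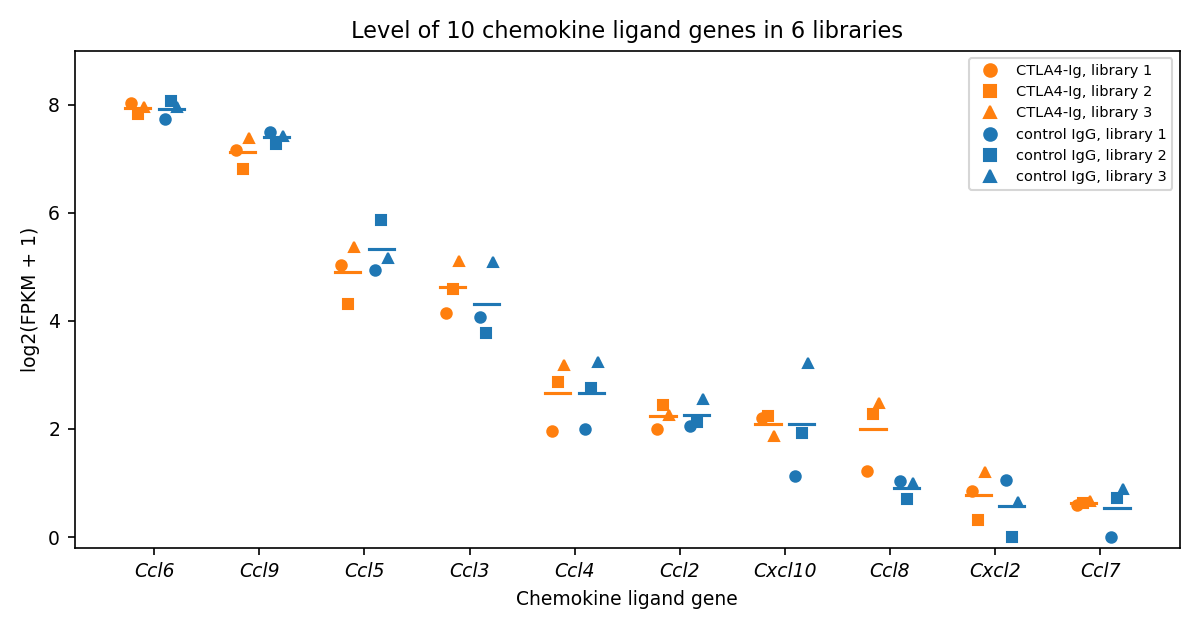
Level of each chemokine ligand gene as log2(FPKM + 1), ordered by its mean over the 6 libraries; points are libraries, orange for CTLA4-Ig and blue for control IgG, and bars are group means. Ccl6 and Ccl9 stand above the other 8 genes in every library, and only for Ccl8 do all CTLA4-Ig points lie above all control points.

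FPKM is a ratio, but for these genes the fragments behind it could be read off. After correction for depth, the 6 values of each ligand were whole multiples of 1 unit, within 0.017 of a whole number at most, and the size of that unit followed the length of the transcript within 4.2% over all 10 genes. On this reading the libraries held 18215 fragments of Ccl6 and 26275 of Ccl9 in all, the second count being larger because the Ccl9 transcript is longer (3006 against 1440 bases). They held 805 fragments of Ccl3, 704 of Ccl5, 200 of Cxcl10, 160 of Ccl4 and 137 of Ccl2. Only 39 fragments of Ccl8, 36 of Cxcl2 and 19 of Ccl7 were counted over the 6 libraries, so counting error is large for these 3 genes.

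Setting the drug group against the IgG group asks whether CTLA4-Ig goes with a different chemokine output of these cells. No ligand passed the test. For 8 ligands the mean reached 1 FPKM, the limit for testing, and 0 of these had an adjusted p under 0.05 (limma, Benjamini-Hochberg), against 0% of all 10865 genes tested. At an unadjusted p under 0.05 there was 1 of 8 (Ccl8), against 6.07% of all genes in limma, and the groups did not overlap in 1 of 8 (again Ccl8), against 12.2% of all genes in either direction and 6.5% with CTLA4-Ig higher. The log2 difference was positive in 5 of 8, against 47.7% of all genes, and its median was 0.0035 against -0.0063 over all genes. Differences are CTLA4-Ig minus control in log2(FPKM + 1), a scale on which changes of low genes look smaller than they are. Ccl7 and Cxcl2 were under the filter in both groups and are given by their values.

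**Figure D2:**
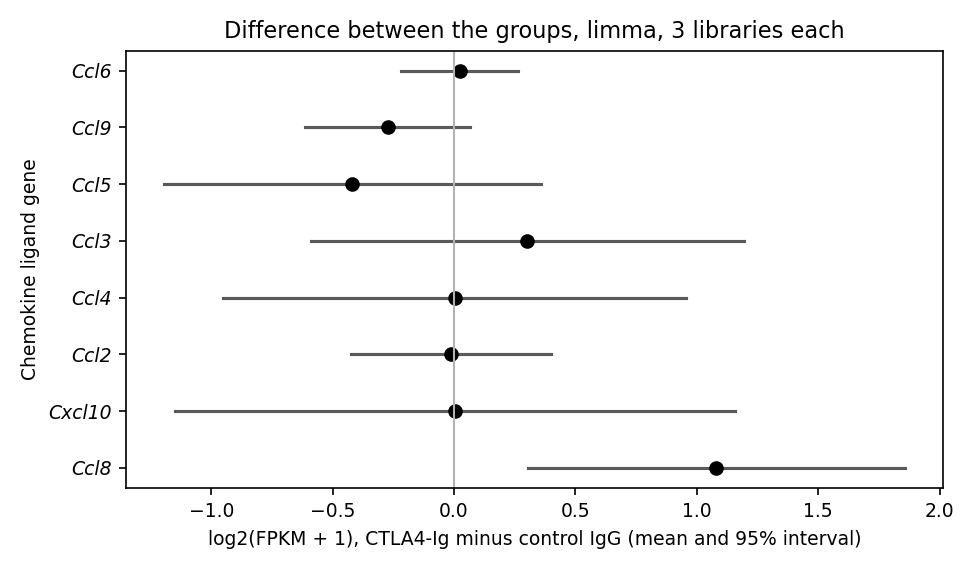
Mean difference in log2(FPKM + 1) between CTLA4-Ig and control IgG for the 8 ligands tested, with limma's 95% interval as a line (3 libraries per group). The interval of Ccl8, from 0.30 to 1.86, lies above 0 before adjustment for the 10865 genes tested, and the other 7 intervals include 0.

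Ccl8, a monocyte chemoattractant that in mice also acts on the receptor Ccr8, had the largest log2 difference of the 8. Its level was 1.32, 3.86 and 4.60 FPKM in CTLA4-Ig libraries 1, 2 and 3 and 1.04, 0.638 and 0.998 FPKM in control libraries 1, 2 and 3. The groups did not overlap, but CTLA4-Ig library 1 lay close to the controls. The means were 3.26 ± 1.72 and 0.892 ± 0.221 FPKM (SD, n = 3), a log2 difference of 1.08 ± 0.33 (SE). Limma gave an unadjusted p = 0.0136 and a Benjamini-Hochberg adjusted p = 0.7196, and the two-sided exact permutation test gave p = 0.1, the smallest that 3 against 3 libraries allow. The values rest on 4, 11 and 16 fragments in the CTLA4-Ig libraries against 3, 2 and 3 in the controls. Scaled for depth the fragment totals of 31 and 8 have a ratio of 3.74, with an exact counting interval of 1.68 to 9.42 at 95%, which covers counting error only and not the spread between libraries.

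Some macrophage genes were also highest in CTLA4-Ig library 3. Folr2, a folate receptor of resident macrophages, stood at 1.26, 3.29 and 5.59 FPKM with CTLA4-Ig against 0.481, 1.11 and 1.85 with control IgG, a log2 difference of 0.95 ± 0.41 (SE, limma adjusted p = 0.824). C1qc, a complement gene of macrophages, stood at 14.2, 22.4 and 50.3 FPKM against 23.1, 7.99 and 15.5. Over the whole list of 16 monocyte and macrophage markers, 8 of the 15 tested were positive (median 0.0469). In limma 1 of the 15 had an unadjusted p under 0.05, against 6.07% of all genes. That was Lyve1, at 1.29, 2.08 and 1.67 FPKM against 0.963, 1.01 and 1.09 (limma adjusted p = 0.751). It was also the 1 of the 15 whose groups did not overlap, against 12.2% of all genes in either direction. The summed level, mostly Ly6c2, overlapped between the groups, at 2940 to 3160 FPKM in the drug group and 3080 to 3130 in the controls. Timd4, another resident macrophage marker, was at most 0.305 FPKM. Summed neutrophil markers, mostly S100a8 and S100a9, were higher in every CTLA4-Ig library than in every control, as given above. Elane (-0.0471) and Mpo (-0.0137) had negative log2 differences, against 11 positive of the 13 tested. The part of either cell type in the Ccl8 values was not tested.

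Ccl2 and Ccl7, the other monocyte chemoattractants of the same gene group, had overlapping groups. Ccl2, a main ligand of Ccr2, stood at 3.015, 4.45 and 3.79 FPKM with CTLA4-Ig against 3.16, 3.39 and 4.89 with control IgG. The groups overlapped, at 3.75 ± 0.716 and 3.81 ± 0.937 FPKM (SD, n = 3), with a log2 difference of -0.01 (95% interval -0.42 to 0.40 in limma, adjusted p = 0.995). Within groups the variance of Ccl2 between libraries was 1.08 times that expected from counting 18 to 29 fragments, so nearly all of its measured spread is of the size of counting error. Ccl7 was at 0.508, 0.540 and 0.590 FPKM with CTLA4-Ig against 0, 0.654 and 0.853 with control IgG, from 3, 3, 4, 0, 4 and 5 fragments in that order. The 0 of control library 1 allows up to 0.533 FPKM (3 fragments), close to the values of the other libraries, so a difference in Ccl7 was not detectable at this depth. Ccl12, a further member of this gene group outside the 10, ranged from 0.295 to 3.72 FPKM, highest in CTLA4-Ig library 3.

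**Figure D3:**
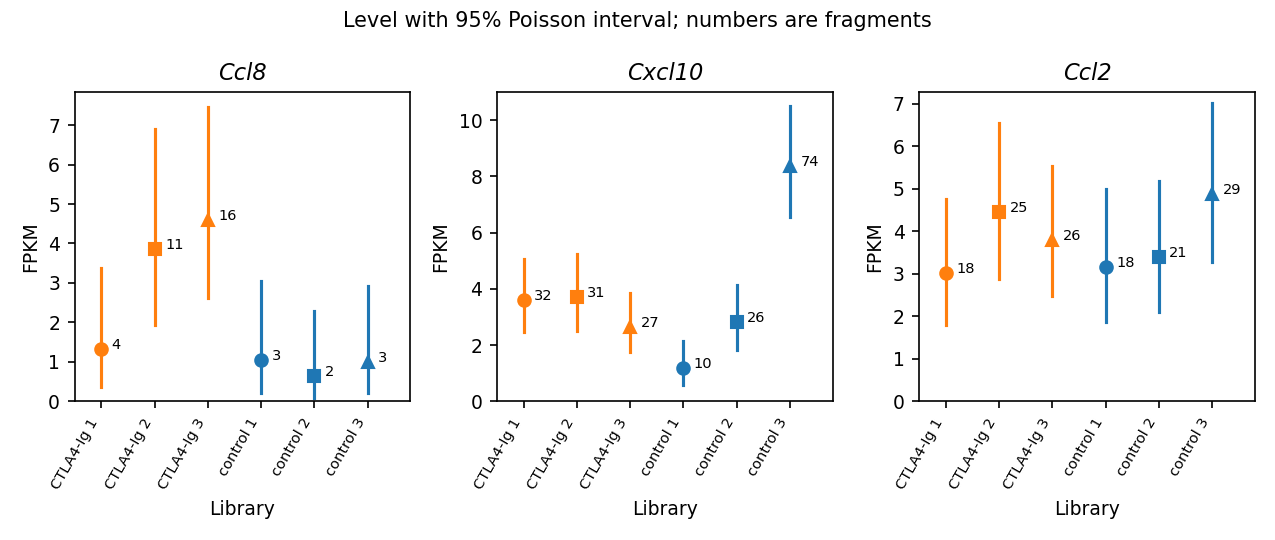
FPKM of Ccl8, Cxcl10 and Ccl2 in each library (points) with the exact 95% Poisson interval of the count as a line and the number of fragments beside each point; intervals cover counting error only. The Ccl8 intervals of CTLA4-Ig libraries 1 and 2 overlap those of all 3 controls. That of CTLA4-Ig library 3 (2.63 to 7.47) overlaps controls 1 and 3 and lies above control 2 (0.0773 to 2.3). Cxcl10 in control library 3 (74 fragments) lies above every other library, and the Ccl2 intervals all overlap.

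Ccl6 was the steadiest of the 10, by the ratio of its highest to its lowest library. Ccl6, a rodent myeloid chemokine, stood at 262, 225 and 248.8 FPKM with CTLA4-Ig against 212, 267 and 248 with control IgG, or 245.5 ± 18.9 and 242 ± 28.1 FPKM (SD, n = 3). Its highest value was 1.26 times its lowest, and the groups overlapped. Within groups its variance was 28.3 times that of counting 2476 to 3508 fragments, so this small spread is still more than counting error. The log2 difference was 0.02 with a 95% interval of -0.22 to 0.27 in limma (adjusted p = 0.986).

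Ccl9, which osteoclast lineage cells make and which binds Ccr1, stood at 143, 112 and 166 FPKM with CTLA4-Ig against 178, 154 and 171 with control IgG. CTLA4-Ig libraries 1 and 2 lay below all controls and library 3 among them, so the groups overlapped. The means were 140.4 ± 27.2 and 168 ± 12.6 FPKM (SD, n = 3), a log2 difference of -0.27 ± 0.14 (SE; limma unadjusted p = 0.0991, adjusted p = 0.854). With CTLA4-Ig library 2 left out the difference was -0.12. With CTLA4-Ig library 3 left out it was -0.40 (limma unadjusted p = 0.0194, adjusted p = 0.8227). The ratio of Ccl6 to Ccl9 ran from 1.5 to 2.01 in the drug group and from 1.19 to 1.73 in the controls, also overlapping.

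Ccl3 and Ccl4, which macrophages release on activation, varied within each group. Ccl3 stood at 16.7, 23.2 and 33.7 FPKM with CTLA4-Ig against 15.9, 12.8 and 33.1 with control IgG, a log2 difference of 0.30 ± 0.37 (SE, limma adjusted p = 0.928). That Ccl3 difference was 0.54 on dropping CTLA4-Ig library 1, 0.05 on dropping CTLA4-Ig library 3, and 0.18, 0.04 and 0.69 on dropping control library 1, 2 or 3. Ccl4 stood at 2.88, 6.35 and 8.09 FPKM with CTLA4-Ig against 3.02, 5.77 and 8.47 with control IgG, a log2 difference of 0.00 ± 0.40 (SE, limma adjusted p = 0.9998). Over the 6 libraries the highest value was 2.63 times the lowest for Ccl3 and 2.94 times for Ccl4. Library 3 was the highest of its group for both genes in both groups, although the numbers are not known to pair the mice, and the groups overlapped for both. Their within-group variance was 26.1 and 5.67 times that of counting, so the spread is not of counting size. Ccl3 exceeded Ccl4 by 2.21 to 5.79 times, and the ratio overlapped between the groups. The intervals of the difference, -0.59 to 1.19 for Ccl3 and -0.95 to 0.96 for Ccl4, each span 0 and do not show that the groups were alike.

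Ccl5, which T cells, NK cells and macrophages make, was 31.9, 18.8 and 40.2 FPKM with CTLA4-Ig against 29.6, 57.75 and 34.6 with control IgG. The lowest value was in CTLA4-Ig library 2 and the highest in control library 2, and the groups overlapped. The means were 30.3 ± 10.8 and 40.7 ± 15.0 FPKM (SD, n = 3), a log2 difference of -0.42 ± 0.33 (SE, limma adjusted p = 0.90). It was -0.12 with CTLA4-Ig library 2 left out, -0.14 with control library 2 left out and -0.65 with CTLA4-Ig library 3 left out. NK cell markers had the same extremes: of 6 tested, 5 were highest in control library 2 and 4 lowest in CTLA4-Ig library 2, and all 6 had a negative log2 difference (median -0.262, 0 at an unadjusted p under 0.05 in limma). Gzma, a granzyme of NK and T cells, stood at 15.1, 12.5 and 22.6 FPKM against 19.6, 26.8 and 22.9. Of 6 T cell markers tested 4 were negative (median -0.081). The part of these cells in the Ccl5 values was not tested.

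Cxcl10, the interferon-induced ligand of Cxcr3, had near-equal group means in log2(FPKM + 1) and a wide spread among controls. It stood at 3.59, 3.70 and 2.64 FPKM with CTLA4-Ig against 1.18, 2.82 and 8.36 with control IgG. The controls held both the lowest and the highest library, and the 3 CTLA4-Ig libraries lay between them. The means were 3.31 ± 0.584 and 4.12 ± 3.76 FPKM (SD, n = 3), a log2 difference of 0.00 ± 0.48 (SE, limma adjusted p = 0.9998). The 95% Poisson intervals of control libraries 1 (0.564 to 2.16 FPKM) and 3 (6.56 to 10.5) did not meet. Without control library 1 the log2 difference was -0.48 and without control library 3 it was 0.57, and its sign also turned when CTLA4-Ig library 1 (-0.0468) or 2 (-0.0628) or control library 2 (-0.0767) was left out.

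Interferon-stimulated genes showed the same extremes as Cxcl10. All 19 tested were lowest in control library 1, and 11 of the 19 were highest in control library 3. Their mean log2(FPKM + 1) was 3.03, 2.79 and 2.76 with CTLA4-Ig against 2.12, 3.02 and 3.24 with control IgG. Isg15, a ubiquitin-like interferon product, stood at 9.32, 7.96 and 6.36 FPKM against 1.34, 7.05 and 13.6, and Cxcl9, a sister ligand of Cxcr3, at 0.371, 0.237 and 0.323 against 0.117, 0.394 and 1.05. Between the groups 12 of the 19 were positive (median 0.0567), with 0 called and 0 at an unadjusted p under 0.05 in limma. Control library 1 was also lowest in all 3 tested osteoblast and fibroblast markers, with Col1a1 at 1.15 FPKM against 3.48 to 7.20 in the other libraries, in all 3 tested red cell and both tested endothelial markers, in 4 of 5 dendritic cell, 4 of 6 T cell and 3 of 6 mast cell, basophil and eosinophil markers, and highest in 6 of 11 genes of LPS sensing and chemokine transcript decay. The part of these cells in the Cxcl10 values was not tested.

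**Figure D4:**
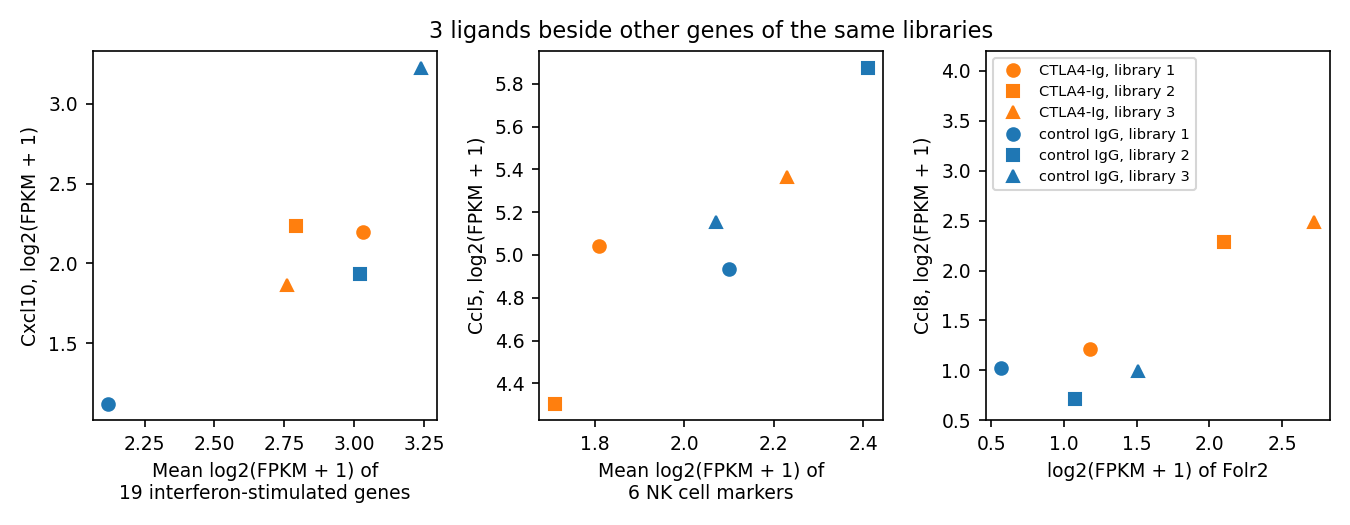
Cxcl10 against the mean of 19 interferon-stimulated genes (left), Ccl5 against the mean of 6 NK cell markers (middle) and Ccl8 against Folr2 (right), all in log2(FPKM + 1); orange is CTLA4-Ig, blue control IgG, and each point is a library. Control library 1 is lowest and control library 3 highest in the Cxcl10 panel, and the extremes of Ccl5 and of the NK markers are CTLA4-Ig library 2 and control library 2.

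Cxcl2, which draws neutrophils through Cxcr2, was barely detected although Cxcr2 itself was not low. It stood at 0.801, 0.243 and 1.29 FPKM with CTLA4-Ig against 1.08, 0 and 0.576 with control IgG, from 7, 2, 13, 9, 0 and 5 fragments in that order. The 0 of control library 2 allows up to 0.331 FPKM (3 fragments). The depth-scaled ratio of the group totals was 1.52 with a 95% counting interval of 0.742 to 3.20, so no difference was detectable at this depth. Other Cxcr2 ligands were lower still: Cxcl1 reached 0.144 FPKM, and Cxcl3 and Cxcl5 were listed at 0 in all 6 libraries.

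Among 9 genes listed as receptors of these ligands, Ccr2 and Ccr1 stood highest. Ccr2 averaged 365 FPKM over the 6 libraries, Ccr1 87.2, Cxcr2 35.7, Cxcr3 2.44 and the atypical receptor Ccrl2 1.93, while Ccr3 averaged 0.821, Ackr1 0.312, Ackr2 0.0452 and Ccr8 0.0185. Of the 5 of these receptors tested 2 were positive and 3 negative (median -0.0356), and 0 were called. In limma 1 of the 5 had an unadjusted p under 0.05, against 6.07% of all genes. That was Ccrl2, at 2.26, 2.46 and 2.43 FPKM with CTLA4-Ig against 1.55, 0.965 and 1.91 with control IgG (limma adjusted p = 0.732). Its groups did not overlap, as was the case for 12.2% of all genes. Ccr2 stood at 361, 343 and 304 FPKM against 357, 381 and 446, a log2 difference of -0.23 ± 0.10 (SE, limma adjusted p = 0.848). Its product is the receptor for Ccl2 and Ccl7, whose own transcripts were 2 of the lower ones here.

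Of the 31 other chemokine ligand genes 7 averaged at least 1 FPKM and 11 were listed at 0 in every library. The 7 were the platelet factor gene Pf4 (4.10 FPKM), Ccl27a (3.91), Cxcl12 (2.66), Xcl1 (2.06), Ccl25 (1.74), Cxcl16 (1.59) and Ccl12 (1.25). Between the groups 5 of the 7 were positive (median 0.050), with 0 called and 0 at an unadjusted p under 0.05 in limma. Each of the 7 was thus below Ccl4 on average per transcript length.

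Genes that act before or after the ligands were also compared, and none passed the adjusted threshold in limma. Of 14 tested inflammatory genes induced through NF-kB 9 were positive (median 0.0411), with 0 called and 0 at an unadjusted p under 0.05 in limma. Il1b, the gene of interleukin-1 beta, stood at 5.82, 9.88 and 16.9 FPKM with CTLA4-Ig against 6.76, 4.58 and 8.56 with control IgG, and Tnf at 18.4, 20.2 and 14.0 against 14.9, 15.8 and 13.7. Of 11 genes of LPS sensing and of chemokine transcript decay 4 were positive (median -0.0038, 0 at an unadjusted p under 0.05), among them Zfp36, which promotes decay of short-lived cytokine transcripts, at 143 FPKM on average. Of 5 tested proteases that can trim chemokines 3 were positive and 0 were called. Mmp9 alone had an unadjusted p under 0.05 in limma, against 6.07% of all genes, at 195, 237 and 184 FPKM against 104, 128 and 73.3. Mmp9 is also one of the neutrophil markers above.

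The genes most like the variable ligands over the 6 libraries differed from ligand to ligand. Likeness was the root mean square difference of log2 values centred on their mean, for the 5 tested ligands with an SD of at least 0.5, with no test. Ccl5 was nearest to LOC100859962 (0.169), the NK receptor gene Ncr1 (0.177) and Gzma (0.220). Cxcl10 was nearest to Slamf8 (0.233) and the collagen genes Col1a2 (0.241) and Col1a1 (0.262), which share its low value in control library 1 and its high value in control library 3. Ccl8 was nearest to Olfm4 (0.308), a gene of a neutrophil subset, to Gas6 (0.317), a ligand of the TAM receptors, and to Ceacam10 (0.330). Ccl3 was nearest to the stress-response gene Ppp1r15a (0.208), Lmna (0.235) and I730030J21Rik (0.249), and Ccl4 to Ermap (0.248), Fads2 (0.256) and Adamdec1 (0.258). No gene was among the 3 nearest of more than 1 ligand. With only 3 genes kept per ligand, this does not show how alike any ligands were, Ccl3 and Ccl4 included.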

How the data were processed

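RNA-seq was analysed from 6 libraries, 3 per group, grouped by title. Per the labels' protocols a stranded mRNA kit was used. The submitters' processing notes name Cuffnorm 2.2.1, TopHat2 2.0.13, SAMtools 0.1.19, Bowtie2 2.2.3 and the build mm10; the sources used here give neither settings nor annotation. The authors deposited 1 FPKM value per gene and library, scaled between libraries. Values were tested as log2(FPKM + 1) in limma 3.58.1 (R 4.3.3, eBayes with a trend), over genes whose mean reached 1 FPKM, with group as the factor and Benjamini-Hochberg adjustment over all of them at 0.05. The test was checked on simulated data. Relative depth came from the ratios of low values (4517 genes under 0.5 FPKM). A ligand's fragments are the smallest whole numbers that fit its depth-corrected values within 0.02, checked against GENCODE M21 transcript lengths; no count test was run on them. Poisson and ratio intervals are exact at 95%, and 3 fragments are the limit a 0 allows. The 10 ligands and the lists (6 of related genes, 11 of cell markers, 181 of 185 genes matched, 5 through older symbols) were chosen with earlier results of these data known; 1 receptor gene is not reported here. Named genes are the ligands, other ligands with a mean of at least 1 FPKM, the receptors, the highest or most different members of each list, and nearest genes; the text gives a part. Ccl12, Cxcl9, Cxcl1, Cxcl3, Cxcl5 and Isg15 were also singled out after their values were seen. Python 3.11.15 with scipy 1.17.1 and matplotlib 3.10.9 was used. Alternatives left out each library in turn, used a replicate block, array weights, a robust prior or no trend, rescaled by quantiles or by the median of ratios, tested all genes or those reaching 5 FPKM, or added 0.5 or 0.1 in place of 1.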

Additional observations from a re-analysis of the deposited data

How the results depend on the processing

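In limma 0 ligands passed the adjusted threshold with any alternative. The Ccl8 difference was 1.08 with all libraries, 1.61 with a pseudocount of 0.1 and 1.32 with 0.5, and between 0.836 and 1.47 when 1 library was left out (unadjusted p = 1.44e-04 to 0.0505, adjusted p = 0.3267 to 0.9995), the lowest on dropping CTLA4-Ig library 3 and the highest on dropping CTLA4-Ig library 1. Of 125 values under alternatives 109 kept the direction of the ligand and 16 turned, all in Ccl2, Ccl4, Ccl6 and Cxcl10, whose differences are near 0. Quantile normalization gave -0.0266 for Ccl6 and -0.0211 for Cxcl10, and array weights -0.251 for Ccl4, -0.0458 for Ccl6 and -0.184 for Cxcl10. With 1 library left out, Ccl2 ran from -0.118 to 0.141, Ccl4 from -0.329 to 0.361, Ccl6 from -0.0700 to 0.0973 and Cxcl10 from -0.482 to 0.571. Over all genes the count called was 0, and 0 to 6 with 1 library left out (659 at an unadjusted p under 0.05 with all). Ccl5 ran from -0.649 to -0.119, Ccl3 from 0.0356 to 0.689 and Ccl9 from -0.402 to -0.119 on leaving out 1 library. For Ccl9 the unadjusted limma p was 0.0194 without CTLA4-Ig library 3 and 0.0379 with the replicate block. For Ccl3 it was 0.04697 without control library 3. The adjusted p was 0.8227, 0.8414 and 0.8607 in that order. Ccl2, Ccl8 and Cxcl10 were not tested at a mean of at least 5 FPKM. The replicate block gave 0 genes called and a Ccl8 difference of 1.08 (limma adjusted p = 0.8414). Deviations of same-numbered libraries had correlations of -0.154, -0.0942 and -0.0235. These gave no sign of pairing, but 3 libraries per group cannot settle whether the numbers pair the libraries. The causes of these shifts were not tested. Depth limits Ccl7, Cxcl2 and Ccl8, each with at most 39 fragments in all.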
